A study of Mus musculus with 52 samples.

Results

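The genes described here are the neighbours of Tug1 on mouse chromosome 11 that remain once the most discussed neighbours are set aside. Tug1 is a long noncoding RNA gene on the minus strand at chr11:3639785-3649673 (GRCm38). A gene was taken as a member if its start site lay within 1 Mb of the Tug1 start and if it was listed in either deposited table. Of 39144 genes listed, 66 had a start in that window. Leaving out Tug1, Morc2a, Rnf185, 8430429K09Rik, Selenom, Inpp5j, Pla2g3, Smtn and Gm11946 gave 57 members. The genes left out were chosen by their ratio of Tug1-/- to wild type in these same samples, so what remains was selected on that readout: every ratio below is a description, with no test.

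RNA-seq was made from male mice of wild type and of Tug1-/-, whose Tug1 gene body is replaced by lacZ behind the kept Tug1 promoter and first exon. The groups were testes (4 wild type, 4 Tug1-/-), prostate (3 and 2) and, with 3 and 3 each, heart, eyes, spleen, liver and MEF, fibroblasts grown from mouse embryos and taken at early passage. A further testes group, rescue (n = 3), carried the Tug1-/- allele, a doxycycline-inducible Tug1 transgene tg(Tug1) and the CAGs-rtTA3 activator, which is expressed throughout the body. Rescue mice were exposed to doxycycline food from the time of mating on, which the sources used here do not state for the other groups, so in the rescue comparisons diet and genotype cannot be told apart. Labels give a mixed C57BL/6J/129S6 background, with a Neo cassette named for Tug1-/- and rescue testes but not for wild-type testes, while the study's methods describe removal of that cassette by Cre. Brain values, from libraries outside the series, are shown as the table names them. DNA linked to the deleted allele travels with it on this chromosome stretch, so an effect of linked strain sequence or of the cassette cannot be told apart from an effect of the deletion. The 6 libraries of F1 hybrid testes were not analysed here. Ages of the mice whose organs were sequenced are not given in the sources used here, and MEF came from mid-gestation littermate embryos.

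The values are TPM, transcript levels scaled for gene length and for depth. Levels are given as the mean of each group, computed by the authors, with no column of a single sample, so no standard deviation of a level can be given and the depth of each library is unknown. The authors' own test columns were not used here, so no p-value is given. Neighbours in an order of levels cannot be told apart from ties for the same reason. Ratios were taken as log2 of (mean + 0.1 TPM) over (mean + 0.1 TPM), and a member was counted as past the fold if the ratio exceeded 1.5-fold in either direction and either mean reached 1 TPM. Such a count is set beside the share of all genes past the same limits in the same comparison. Because a gene could pass the 1 TPM limit through its higher group alone, the counts support nothing about direction. Ranks were taken among genes with either mean at 5 TPM or more, and the same limit holds for them.

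In whole-tissue RNA, fewer cells of a type and less RNA per cell cannot be told apart. All 24 tissue markers checked had their highest wild-type mean in their own tissue. Tug1 itself stood at 0.0825% to 2.21% of wild type in the 8 Tug1-/- means and stood at 4.0% of wild type in rescue testes. The median log2 ratio of all genes at 1 TPM lay at -0.11 in eyes, 0.10 in heart and -0.11 in spleen, and closer to 0 in the other tissues.

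A long noncoding RNA locus can act on genes near it, through its RNA, through the act of transcription or through DNA elements, and such an action is looked for among genes on the same chromosome. The neighbourhood of Tug1 mixes housekeeping genes of splicing, ribosome assembly and translation with genes of strongly restricted use: the lipid carrier Sec14l4, the cytokines Lif and Osm, and genes of the male germ line.

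Of the 57 members, 19 had their start at lower coordinates than Tug1 and 38 at higher coordinates. Protein-coding genes made up 29 of them. The other 28 were noncoding, among them 13 processed pseudogenes, 3 antisense RNAs, 2 small nuclear RNAs, 2 small nucleolar RNAs and 1 microRNA locus, and 16 of the 28 overlapped another listed gene. Every member was found by gene ID in the GENCODE M21 annotation of the same build. Counts made without strand cannot separate a gene from one on the other strand, and the strand setting of the counting is not given in the sources used here. The tables listed 53 members in testes and between 36 (liver) and 45 (eyes) elsewhere. Of these, 39 reached 1 TPM in either testes mean, against 34 in eyes, 29 in brain, 28 each in MEF and spleen, 27 in prostate, 23 in heart and 22 in liver.

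The edges of the window fell as follows. At lower coordinates Pisd-ps1 was the first member, with its start 524 kb from that of Tug1, and 0 listed genes of chromosome 11 lay below the window. At higher coordinates the last members were Gm11961 at 980 kb and Ascc2 at 988 kb, and the next gene outside was Uqcr10, a subunit of respiratory complex III, at 1055 kb. Ascc2 had means of 89.6 TPM in wild-type against 88.6 TPM in Tug1-/- testes. Uqcr10 had 211 and 218 TPM there. Nearest to Tug1 on either side were the pseudogene Gm11951, at 16.2 kb, and the small nuclear RNA gene Gm26393, at 7.12 kb within an intron of Morc2a on the opposite strand.

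Among the members are a pair of divergent gene pairs, in which a minus-strand and a plus-strand gene start close together and point apart. Their shared start regions are printed here because the genes of a pair share this DNA and yet differed in their levels across tissues. 4921536K21Rik and Dusp18 start 142 bases apart, and Ccdc157 and Sf3a1 start 57 bases apart. Each stretch runs from 25 bases outside one start to 25 bases outside the other, on the plus strand, from RefSeq promoter sequence of GRCm38.p6. Capitals mark matches on either strand to GTTGCCNNG, letters found in the X-box, an element known to be read by RFX transcription factors.
4921536K21Rik and Dusp18, chr11:3895073-3895265: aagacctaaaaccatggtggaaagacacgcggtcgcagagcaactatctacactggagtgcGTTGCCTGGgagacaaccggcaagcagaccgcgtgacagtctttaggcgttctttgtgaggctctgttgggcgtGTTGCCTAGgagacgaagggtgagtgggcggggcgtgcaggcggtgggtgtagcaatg
Ccdc157 and Sf3a1, chr11:4160268-4160375: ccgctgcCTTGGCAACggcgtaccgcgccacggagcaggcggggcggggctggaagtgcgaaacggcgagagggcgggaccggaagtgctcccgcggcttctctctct
The first stretch held 2 matches and the second 1. The letters were chosen after these sequences were read. Of 32851 RefSeq promoters of 300 bases (250 before to 50 after a start), 5.00% held a match, as did 5.74% of the 27025 genes they belong to. RefSeq promoters were matched for 23 members, with Castor1 as the RefSeq name of the gene listed as Gatsl3, and 4 of the 23 held a match: the genes of these pairs, whose windows overlap and share the same matches. The windows of these 4 genes held 16 to 31 CpG pairs and 57.3% to 66% G and C. The medians over all promoters were 7 and 52.7%, so the shares above are not from promoters of like composition. A match is a run of letters and not a site shown to be bound.

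The level of 4921536K21Rik, a gene of unknown function, was 111 TPM in wild-type testes. In the other tissues it lay between 0.0569 TPM (spleen) and 1.09 TPM (MEF), and liver did not list it. Dusp18, a dual-specificity phosphatase, had 32.6 TPM in testes, 26.1 TPM in heart, 25.1 TPM in brain, 9.30 TPM in MEF, 6.54 TPM in eyes, 1.43 TPM in prostate, 0.750 TPM in spleen and 0.0342 TPM in liver. The minus-strand gene was thus 3.40 times its partner in testes and at most 0.184 times its partner elsewhere. Ccdc157, a coiled-coil protein gene, was likewise highest in testes, at 57.5 TPM, followed by eyes at 39.6 TPM and brain at 22.5 TPM, with 5.57 to 9.09 TPM in the other tissues. Sf3a1, a subunit of the U2 splicing particle, had its highest means in MEF (59.2 TPM), eyes (51.5 TPM) and brain (49.5 TPM) and had 35.4 TPM in testes. The ratio of Ccdc157 to Sf3a1 was 1.62 in testes, 0.930 in liver, and 0.154 in MEF. The plot of the pairs by tissue shows these levels.

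**Figure D1:**
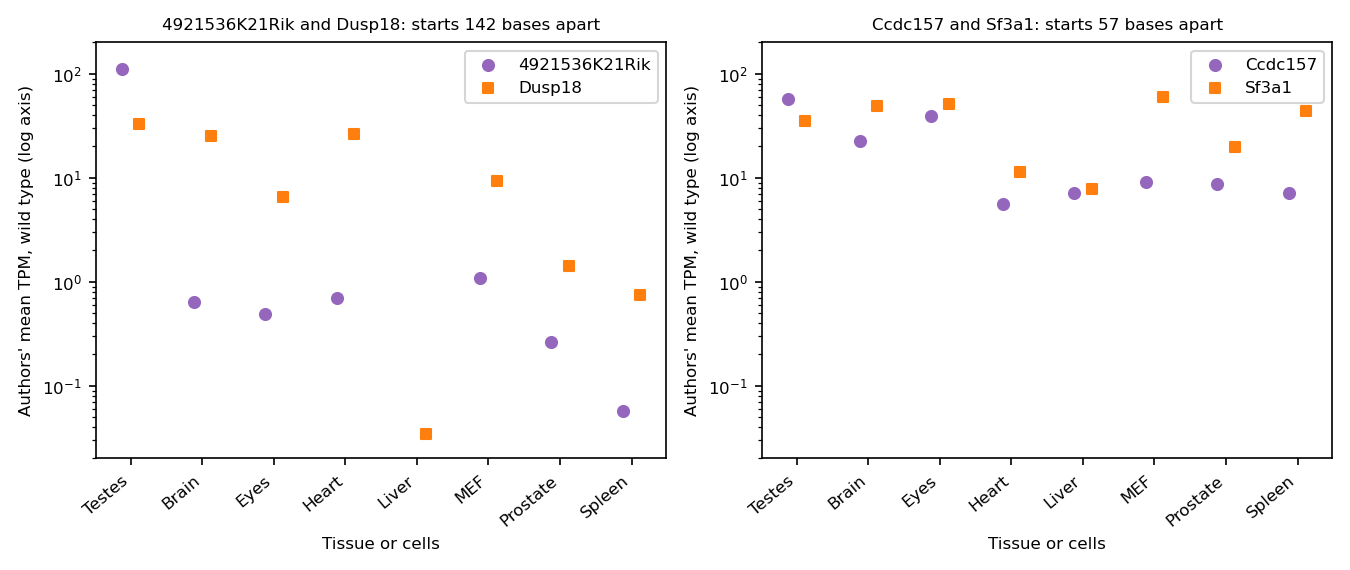
Wild-type means of both divergent pairs in 8 tissues or cell types (authors' mean TPM, log axis; circles, minus-strand gene; squares, plus-strand gene; a missing circle was not listed). Only in testes does the minus-strand gene of either pair lie above its partner: 111 against 32.6 TPM, and 57.5 against 35.4 TPM.

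In Tug1-/- none of these 4 genes was past the fold. In testes the means were 110.0 TPM for 4921536K21Rik, 31.2 TPM for Dusp18, 58.6 TPM for Ccdc157 and 37.8 TPM for Sf3a1, and in rescue testes they were 112, 33.0, 61.4 and 40.7 TPM in the same order.

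Wild-type levels of the members differed between tissues. All 29 protein-coding members reached 1 TPM in the wild-type mean of some tissue, and 14 reached it in all 8. That is 48.3% of them, beside 49.2% of the 18352 protein-coding genes of the tables that reached 1 TPM in at least 1 tissue. Testes held the highest mean for 9 of the 29, MEF for 6, spleen for 5, eyes for 4, brain and liver for 2 each and heart for 1. Among all protein-coding genes at 1 TPM, 22.8% were highest in testes. The heat map of wild-type levels shows broad genes beside restricted ones along the chromosome.

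**Figure D2:**
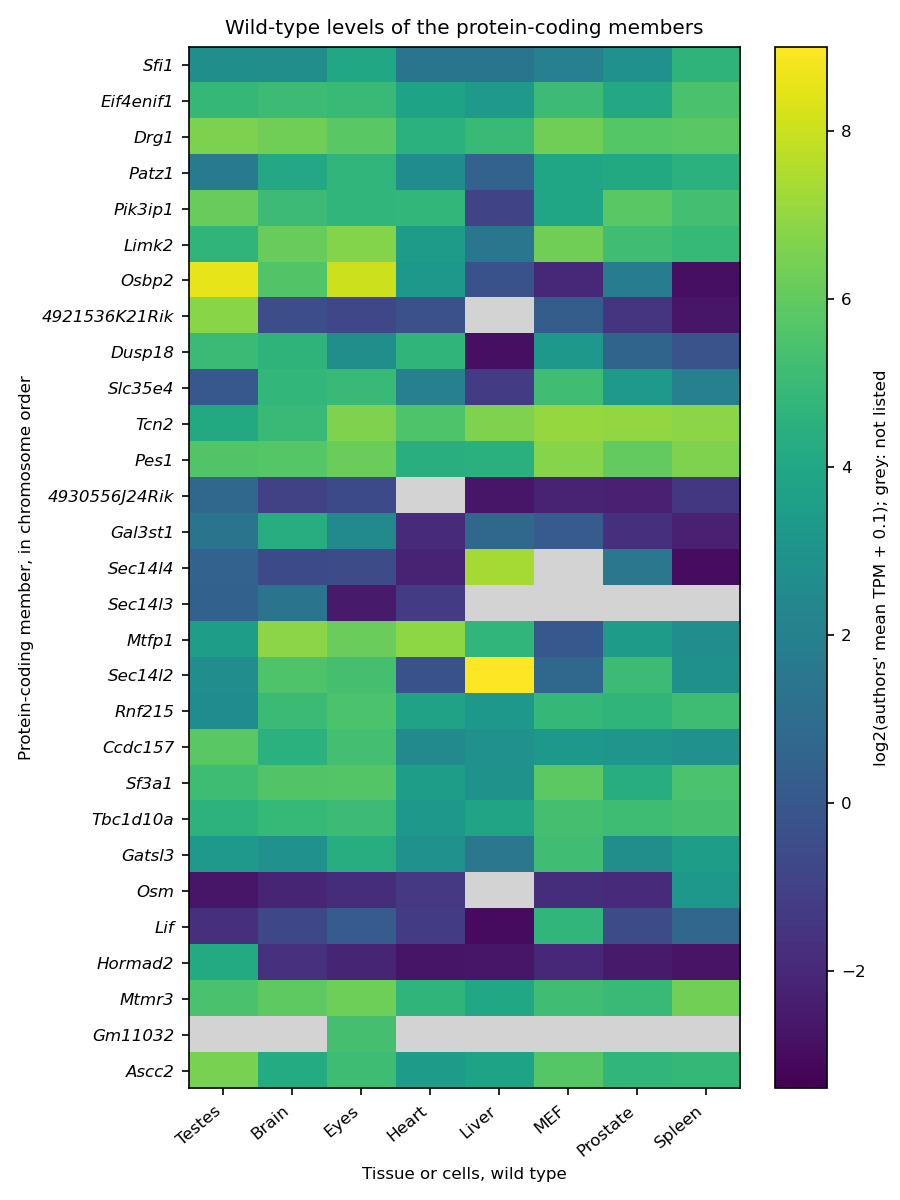
Wild-type means of the 29 protein-coding members (rows, in chromosome order) in 8 tissues or cell types (columns), as log2(authors' mean TPM + 0.1), with grey where the table does not list the gene. Sec14l2 and Sec14l4 stand out in liver (514 and 160 TPM), Osbp2 in testes and eyes (376 and 264 TPM) and Gm11032 in eyes alone (40.5 TPM).

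Lipid, sterol and vitamin handling was the largest role list, with 8 members. Of those at 1 TPM, 1 of 4 was past the fold in heart (Osbp2, lower), 1 of 5 in MEF (Gal3st1, lower), 1 of 6 in prostate (Osbp2, higher), 1 of 4 in spleen (Sec14l2, higher) and 1 of 8 in rescue over Tug1-/- testes (Sec14l4, lower), and 0 in the other comparisons. The shares of all genes past the same limits were 4.56% in heart, 7.73% in MEF, 7.99% in prostate, 10.5% in spleen and 4.65% in rescue over Tug1-/-, and lists this small say nothing beyond their named genes. Osbp2 encodes an oxysterol-binding protein of the family that moves sterols and phosphoinositides between membranes, and is described last. The 3 Sec14-like genes encode lipid-binding carriers, and Sec14l2 is known to bind tocopherol and squalene. Sec14l2 had 514 TPM in wild-type liver, 47.6 TPM in brain, 40.3 TPM in eyes, 34.7 TPM in prostate, 7.04 TPM in spleen, 6.38 TPM in testes, 1.62 TPM in MEF and 0.736 TPM in heart. Sec14l4 had 160 TPM in liver and at most 2.80 TPM, in prostate, elsewhere. Sec14l3 was not listed in liver and was highest in brain at 2.51 TPM, so liver used the outer genes of this cluster and not the middle one. Tug1-/- liver had 446 TPM of Sec14l2 and 180.1 TPM of Sec14l4.

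Tcn2, the transcobalamin that delivers vitamin B12 to tissues, was broad, from 17.5 TPM in testes to 129 TPM in MEF. Mtmr3, a phosphoinositide 3-phosphatase, ran from 16.5 TPM in liver to 81.3 TPM in spleen. Gal3st1 makes the myelin lipid sulfatide and was highest in brain, at 20.2 TPM in wild type against 19.4 TPM in Tug1-/-. In MEF the Gal3st1 mean was 1.0 TPM in wild type against 0.403 TPM in Tug1-/-, past the fold, but within it with a pseudocount of 1 TPM (log2 ratio -0.51). Pisd-ps1, a transcribed pseudogene of phosphatidylserine decarboxylase, had 65.5 TPM in wild-type against 59.8 TPM in Tug1-/- spleen, and 21.5, 16.1 and 19.1 TPM in wild-type, Tug1-/- and rescue testes. Reads of a pseudogene may be shared with its parent gene, which leaves its level uncertain.

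The cytokines Lif and Osm, neighbouring members of the interleukin-6 family, were each restricted to a different source. Lif, which keeps mouse embryonic stem cells undifferentiated, had 26.6 TPM in wild-type against 38.1 TPM in Tug1-/- MEF, a log2 ratio of 0.52 and so within 1.5-fold. Elsewhere its wild-type mean was at most 1.54 TPM. Osm, a cytokine of blood-forming and immune cells, had 9.05 TPM in wild-type against 7.61 TPM in Tug1-/- spleen and at most 0.290 TPM in the wild type of any other tissue. In spleen Lif was past the fold, with 1.54 TPM in wild type against 0.916 TPM in Tug1-/-, but not with a pseudocount of 1 TPM (log2 ratio -0.40) or when centred on the median of all genes (-0.58).

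The list of kinase, phosphatase and nutrient signalling held 5 members, and 1 of the 5, Gatsl3, was past the fold, in testes, beside 6.26% of all genes there. Limk2, a kinase that phosphorylates the actin-severing protein cofilin, was highest in eyes (105 TPM in wild type against 85.6 TPM in Tug1-/-) and MEF (80.6 and 67.4 TPM). Pik3ip1, an inhibitor of phosphoinositide 3-kinase, had 68.5 TPM in wild-type testes, 57.2 TPM in prostate and 0.459 TPM in liver. Tbc1d10a, a GTPase-activating protein for Rab proteins, lay between 9.23 TPM (heart) and 40.6 TPM (spleen). Gatsl3, now named Castor1, encodes an arginine sensor upstream of mTORC1. Its means were 9.46 TPM in wild-type, 5.86 TPM in Tug1-/- and 6.07 TPM in rescue testes. In Tug1-/- over wild-type testes Gatsl3 was the only protein-coding member past the fold, at a log2 ratio of -0.68, and 234 other genes of 14141 at 5 TPM or more had a ratio as low or lower. In the other tissues Gatsl3 lay on both sides of 0, with 7.20 TPM in wild-type against 10.4 TPM in Tug1-/- heart and 2.72 and 1.83 TPM in liver.

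The list of RNA, ribosome and transcription held 6 members, all at 1 TPM in every tissue, and 0 of the 6 were past the fold in any of the 10 comparisons, beside 4.56% to 10.5% of all genes. Their log2 ratios of Tug1-/- to wild type ranged from -0.16 (Pes1 in spleen) to 0.34 (Sf3a1 in heart). Pes1, needed for maturation of the large ribosomal subunit, had 107 TPM in wild-type against 127 TPM in Tug1-/- MEF. Drg1, a GTPase of translation, had 94.0 and 101 TPM in testes. Eif4enif1, which carries the cap-binding protein eIF4E into the nucleus, had 28.7 and 29.8 TPM there. Ascc2 is a subunit of the activating signal cointegrator complex, and Patz1 is a zinc-finger transcription factor with its highest wild-type mean in eyes (26.7 TPM) and 3.24 TPM in testes. Drg1 and Sfi1 overlap on the same strand, and each has exon sequence within the span of the other. Reads of any bases that are exon in both cannot be assigned to either.

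Of the 3 members of the centrosome, meiosis and testis list, 2 or 3 were at 1 TPM in each comparison and 0 were past the fold, beside the same shares of all genes. Hormad2, a protein of the meiotic chromosome axis, had 17.9 TPM in wild-type, 19.1 TPM in Tug1-/- and 21.1 TPM in rescue testes and at most 0.218 TPM in the wild type of other tissues. Sfi1, which binds centrin at the centrosome, was highest in spleen, at 25.4 TPM in wild type against 21.2 TPM in Tug1-/-. Of the mitochondria, membrane and transport list, Mtfp1, a protein of mitochondrial fission, was highest in heart (118 TPM in wild type against 129 TPM in Tug1-/-) and brain (115 and 128 TPM). Slc35e4, of the nucleotide-sugar transporter family, had 36.6 TPM in MEF and 0.926 TPM in testes, and Rnf215, a RING-finger protein, had 45.1 TPM in eyes and 6.04 TPM in testes.

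The remaining protein-coding members were 4930556J24Rik, 4921536K21Rik and Gm11032. The first had 1.63 TPM in wild-type against 1.71 TPM in Tug1-/- testes and less than 1 TPM elsewhere. Gm11032 was listed in eyes alone, with 40.5 TPM in wild type against 32.9 TPM in Tug1-/-. Gm11961, an antisense RNA whose span covers exon sequence of Gm11032 on the opposite strand, had 88.1 and 69.5 TPM in eyes and at most 0.324 TPM in wild type elsewhere. Reads of any bases that are exon in both cannot be separated unless strand was used.

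Of the 28 noncoding members, 18 reached 1 TPM in the wild-type mean of some tissue, 5 reached 5 TPM, and 2, Pisd-ps1 and Mir3060, reached 1 TPM in all 8. The 5 were Pisd-ps1, Gm11944, Gm11948, Mir3060 and Gm11961. Gm11944 is a processed transcript on the same strand as Patz1. Its start at base 3308996 overlaps only the end of Patz1, which lies at 3309083. It had 17.4 TPM in wild-type against 14.5 TPM in Tug1-/- eyes and 11.9 and 11.1 TPM in spleen, and Patz1 was highest in the same tissues. Gm12592, on the opposite strand across Patz1, Gm11944 and Pik3ip1, had 4.22 and 4.36 TPM in testes. Gm12735 and Gm11400, which lie in introns of Drg1 and Sfi1, were highest in wild-type spleen at 4.56 and 3.53 TPM. The others at 1 TPM were Gm16518 (4.25 TPM in wild-type testes), Gm11953 and Gm11957 (3.60 and 1.78 TPM in eyes), Gm11958 (2.20 TPM, in heart alone), Gm11399 (1.87 TPM in spleen), Gm11956 and Gm11959 (1.86 and 1.20 TPM in testes), Gm24439 (1.80 TPM in eyes), Gm26393 (1.32 TPM in testes) and Gm11955 (1.10 TPM in liver). The other 10 stayed under 1 TPM in every wild-type mean.

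In testes, 5 of 39 members were past the fold in Tug1-/- over wild type, beside 6.26% of all genes. Besides Gatsl3, lower in Tug1-/-, these were 4 noncoding members with higher means in Tug1-/-. Gm24439, a small nucleolar RNA gene of 117 bases in an intron of 8430429K09Rik on the opposite strand, had 1.71 TPM in wild type against 4.30 TPM in Tug1-/- and 3.09 TPM in rescue. Gm26393, of 129 bases, had 1.32, 4.01 and 2.50 TPM. Gm11951, a processed pseudogene of 431 bases that overlaps no listed gene, had 0.433, 1.91 and 1.29 TPM. Gm24013, a small nucleolar RNA gene of 99 bases in an intron of Osbp2 on the opposite strand, had 0.801, 1.31 and 2.98 TPM. The host introns of Gm24439 and Gm26393 belong to genes the rule left out, and the 3 small RNA genes are so short that few reads make 1 TPM. Markers of other tissues differed between the same means: all 8 fast skeletal muscle markers were higher in Tug1-/-, with summed levels of 5.26 TPM in wild type, 40.1 TPM in Tug1-/- and 4.62 TPM in rescue testes, led by Tnnt3 at 0.113, 9.48 and 0.0899 TPM. All 5 seminal vesicle markers were higher too, with sums of 10.3, 15 and 16.3 TPM. The part of these cells in the testes values of Gatsl3 and the 4 noncoding members was not tested.

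Gm11951 belongs to a run of 3 processed pseudogenes 16.2 to 23.8 kb from the Tug1 start, beyond the 3′ end of Tug1. Gm11950 was listed at 0 TPM in wild-type testes, 0.370 TPM in Tug1-/- and 0.349 TPM in rescue. Gm11949 had 0.0951 TPM, 0.471 TPM and 0.612 TPM. All 3 had their lowest testes mean in wild type, and 2 of the 3 stayed under the 1 TPM limit in every group. A gene was listed if any library reached the read filter, and Gm11951 passed the 1 TPM limit through Tug1-/- and rescue, so for genes this low the filters select for a difference in some direction and this order supports nothing. Outside testes Gm11949 and Gm11950 were not listed. Gm11951 had 0.416 TPM in wild-type prostate and was listed at 0 in Tug1-/- prostate, 0.340 and 0.193 TPM in MEF, and 0 and 0.119 TPM in liver. The plot of testes means places these genes beside each other.

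**Figure D3:**
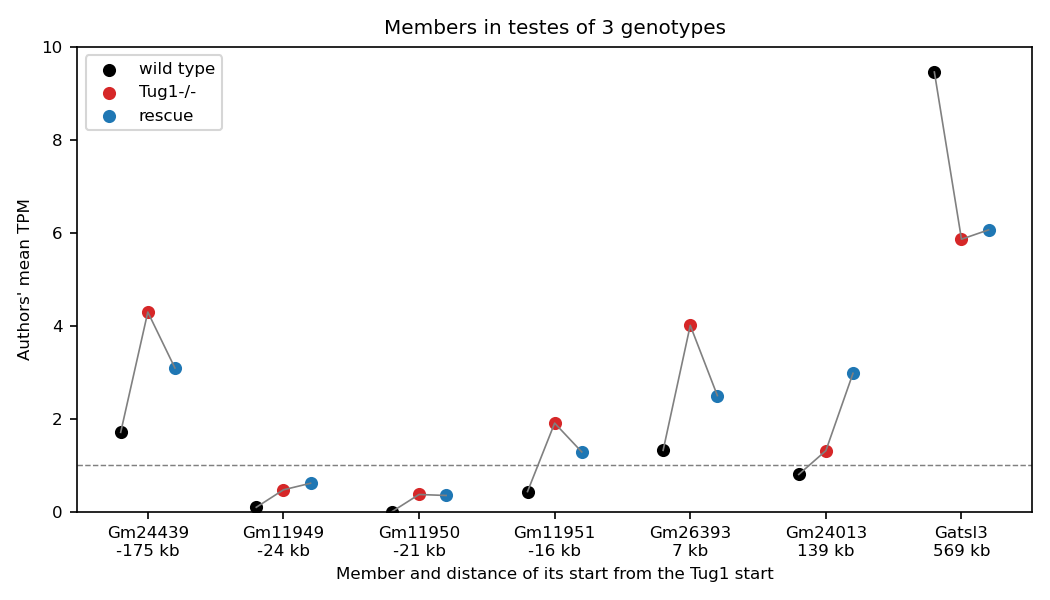
Authors' mean TPM of 7 members in wild-type, Tug1-/- and rescue testes (points; lines join the groups of a gene), with the distance of each start from that of Tug1; the dashed line marks 1 TPM. The 6 noncoding members lie below their Tug1-/- and rescue means in wild type, and Gatsl3 lies above them (9.46 against 5.86 and 6.07 TPM).

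With rescue over Tug1-/- testes, 4 of 40 members were past the fold, beside 4.65% of all genes. Gm24013 and the small nuclear RNA gene Gm24803 (0.255 and 1.10 TPM) were higher in rescue, and Gm26393 and Sec14l4 (1.48 and 0.922 TPM) were lower. With rescue over wild type, 7 of 40 were past the fold, beside 7.93% of all genes. Higher in rescue were Gm24439, Gm11951, Gm26393, Gm24013 and Gm24803, and lower were Gatsl3 and the pseudogene Gm11956 (1.86 and 1.20 TPM). With a pseudocount of 1 TPM the calls of Gm26393 and Sec14l4 in rescue over Tug1-/-, of Gatsl3, Gm11956 and Gm24803 in rescue over wild type, and of Gm24013 in Tug1-/- over wild type ended. The 3 testes comparisons share group means with each other, so their likeness is not a separate result.

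In brain, 2 of 29 members were past the fold, beside 6.14% of all genes. These were the pseudogenes Gm11400 (1.14 TPM in wild type against 0.163 TPM in Tug1-/-) and Gm16518 (2.09 and 0.442 TPM), with authors' mean normalised counts of 5.16 and 4.05. In eyes it was 2 of 34, beside 7.87%. Gm11948, a transcript in an intron of Limk2 on the same strand, had 9.15 and 5.68 TPM, while Limk2 itself had 105 and 85.6 TPM. Gm11399, an antisense RNA whose span covers Sfi1 exon sequence, had 1.19 and 0.650 TPM. In the same eyes means all 8 fast skeletal muscle markers were higher in Tug1-/-, with sums of 7233 and 12406 TPM, and 4 of 5 erythroid markers were higher, with sums of 590 and 1817 TPM. No marker of either list was at 0, and the part of these cells in the eyes values was not tested. In MEF it was 4 of 28, beside 7.73%: Gal3st1, Gm11948 (1.24 and 0.296 TPM), Gm24803 (0.444 and 1.30 TPM, mean normalised count 0.977) and Mir3060. In liver 0 of 22 members were past the fold, beside 6.02%.

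Mir3060 was past the fold in 3 tissues, in both directions, at folds of 1.502 in heart, 1.54 in MEF and 1.54 in prostate that lie next to the limit. With a pseudocount of 1 TPM it was past the fold in 0 of these tissues (1.42, 1.49 and 1.48), and centred on the median of all genes it was past it in 1, prostate. It is a microRNA locus of 83 bases in an intron of Rnf215 on the same strand. Its mature arms are printed from RefSeq (GRCm38.p6), with the seed, bases 2 to 8, in capitals, to show what the locus encodes.
mmu-miR-3060-5p, chr11:4139377-4139396: gGGAGUGCuucgugcuucug
mmu-miR-3060-3p, chr11:4139413-4139434: cCAUAGCAcagaagcacuccca
Polyadenylated RNA was sequenced, so the counts are of reads over the locus and not of these arms. The means were 4.72 TPM in wild-type against 7.14 TPM in Tug1-/- heart, 9.26 and 14.3 TPM in MEF, and 10.2 and 6.60 TPM in prostate. The authors' mean normalised counts were 9.95, 10.1 and 9.53 in the same order. Rnf215 had 13.2 and 15.1 TPM in heart, 29.0 and 31.7 TPM in MEF and 26.1 and 27.0 TPM in prostate, so in prostate the locus was lower and its host gene slightly higher in Tug1-/-. Eyes had the highest level of Mir3060, 35 TPM in wild type against 23.6 TPM in Tug1-/-, and of Rnf215.

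In spleen, 4 of 28 members were past the fold, beside 10.5% of all genes. Sec14l2 had 7.04 TPM in wild type against 19.8 TPM in Tug1-/-, a log2 ratio of 1.48, and of 12364 genes at 5 TPM or more it ranked 70 by size of increase. Mtfp1 had 6.26 and 10.1 TPM, at rank 473. Lif is given above, and Gm11399 had 1.87 and 0.940 TPM. Genes of other cells differed between the same means. All 8 pancreatic acinar markers checked (Ctrb1, Pnlip, Cpa1, Cela1, Cpb1, Cel, Prss2 and Clps) were higher in the Tug1-/- mean, with summed levels of 74.0 TPM in wild type against 8839 TPM in Tug1-/- and with 0 markers at 0. All 5 erythroid markers (Hba-a1, Hbb-bs, Alas2, Slc4a1 and Epb42) were higher too, with sums of 19883 and 35946 TPM. The 3 liver markers Alb, Apoa1 and Ttr summed to 21.3 TPM in wild-type against 0.245 TPM in Tug1-/- spleen. The part of these cells in the spleen values of Sec14l2, Mtfp1, Lif and Gm11399 was not tested.

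Osbp2 lies on the minus strand at chr11:3703731-3863903, 214 kb from the Tug1 start, and RefSeq gives 3 start regions for it, which gene-level values do not separate. In wild type its mean was 376 TPM in testes, 264 TPM in eyes, 49.0 TPM in brain, 9.26 TPM in heart, 3.35 TPM in prostate, 0.722 TPM in liver, 0.154 TPM in MEF and 0.0341 TPM in spleen. In Tug1-/- it was 299.6 TPM in testes, 299.1 TPM in eyes, 46.9 TPM in brain, 1.46 TPM in heart, 6.59 TPM in prostate, 0.0733 TPM in liver, 0.121 TPM in MEF and 0.0776 TPM in spleen, and rescue testes had 312 TPM. In the 3 tissues where Osbp2 was abundant, the log2 ratio was -0.33 (testes), 0.18 (eyes) and -0.06 (brain), within 1.5-fold. In testes 399 other genes of 14141 at 5 TPM or more had a ratio as low or lower.

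In heart, where 2 of 23 members were past the fold beside 4.56% of all genes, Osbp2 had a log2 ratio of -2.59, and 10 other genes of 9147 at 5 TPM or more were as low or lower. Osbp2 reached 5 TPM there through wild type alone, so this rank supports nothing about direction. Mir3060 was the other member past the fold. In liver Osbp2 lay under the 1 TPM limit, with a log2 ratio of -2.25 and an authors' mean normalised count of 45.6. In prostate, 2 of 27 members were past the fold beside 7.99% of all genes, and Osbp2 was the one that was higher in Tug1-/-, at a log2 ratio of 0.95, with Mir3060 lower.

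Markers of other tissues differed as well between the genotype means of heart and prostate. In heart all 8 fast skeletal muscle markers (Myh1, Myh2, Myh4, Tnnt3, Tnni2, Atp2a1, Mylpf and Pvalb) were lower in Tug1-/-, with summed levels of 107 TPM in wild type against 7.03 TPM in Tug1-/-, and Myh4 was at 0 in Tug1-/-. All 6 airway epithelium markers (Scgb1a1, Scgb3a2, Scgb3a1, Bpifa1, Foxj1 and Tekt1) were lower, with sums of 41.5 and 0.976 TPM, and Bpifa1 and Scgb3a2 were at 0 in Tug1-/-. The 5 erythroid markers, all lower, summed to 37583 and 30025 TPM. In prostate the 5 seminal vesicle markers Svs2, Svs3a, Svs4, Svs5 and Svs6 summed to 19935 and 59341 TPM, with 3 higher and 2 lower in Tug1-/-, and the 4 erythroid markers listed, all higher, summed to 141 and 257 TPM. The part of these cells in the Osbp2 and Mir3060 values of heart and prostate was not tested. In liver 2 of the 8 fast skeletal muscle markers were listed and summed to 1.90 TPM and 1.89 TPM, and the erythroid markers summed to 691 and 698 TPM, in wild type and Tug1-/-. The 6 of 8 pancreatic acinar markers listed in liver were all lower in Tug1-/-, with sums of 47.8 and 35.8 TPM. Nearly all of this was Cela1, at 46.8 and 35.8 TPM, a gene that also had 26.2 TPM in wild-type eyes. In Tug1-/- liver Cel, Cpb1, Ctrb1, Pnlip and Prss2 were at 0. The 3 of 6 airway markers listed there summed to 0.481 and 0.416 TPM, with Bpifa1 at 0 in Tug1-/-. The part of these cells in the liver value of Osbp2 was not tested.

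**Figure D4:**
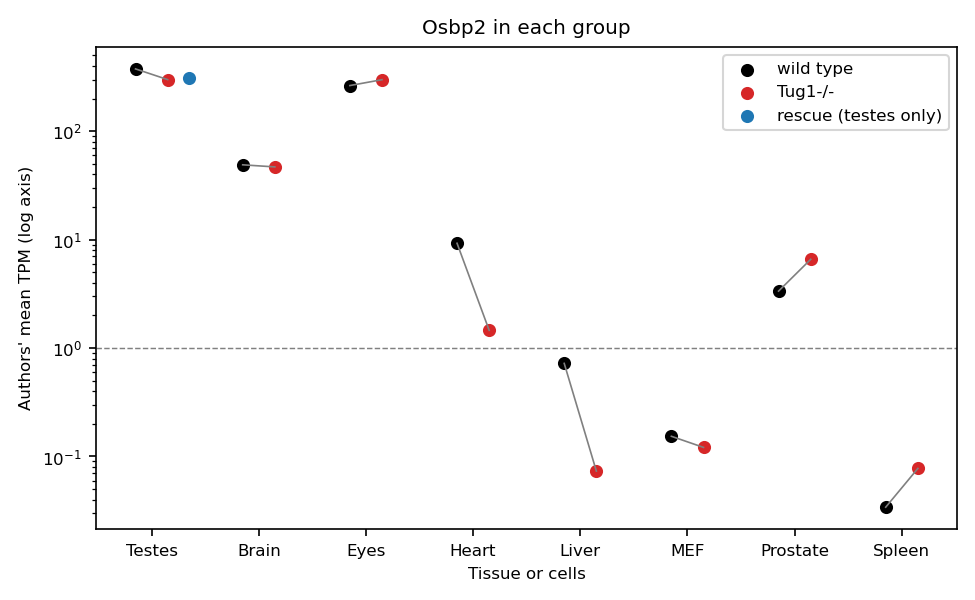
Osbp2 in each tissue or cell type (authors' mean TPM, log axis) for wild type, Tug1-/- and, in testes, rescue; lines join the genotypes and the dashed line marks 1 TPM. The genotypes are within 1.5-fold in testes (376 to 299.6 TPM), brain and eyes. The mean is lower in Tug1-/- heart (9.26 to 1.46 TPM) and higher in Tug1-/- prostate (3.35 to 6.59 TPM).

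Across the 8 tissues, 16 members were past the fold in Tug1-/- over wild type at least 1 time, 6 of them protein-coding and 10 noncoding. That is 32.0% of the 50 members that reached 1 TPM in some tissue, beside 23.9% of 29950 genes counted the same way. Of the 16, 12 were past it in 1 tissue, 3 in 2 tissues (Osbp2, Gm11399 and Gm11948) and Mir3060 in 3, which became 0 with a pseudocount of 1 TPM and 1 when centred on the median of all genes. With that pseudocount Gm11399 was past the fold in 0 tissues, and when centred Gm11948 was past it in 1. The members past it in exactly 1 tissue were 24.0% of the 50 beside 18.2% of all genes, those in 2 tissues 6.00% beside 3.90%, and the 1 in 3 or more 2.00% beside 1.74%. Neighbouring and overlapping members share reads, and none of these shares was tested. The median log2 ratio of the members at 1 TPM differed by less than 0.1 from that of all genes in each tissue. By side, the medians ran from -0.16 (eyes) to 0.11 (testes) at lower coordinates and from -0.10 (eyes and liver) to 0.19 (heart) at higher coordinates. The plot of ratio against distance shows members past the fold between 7.12 and 675 kb from the Tug1 start, with most members near the median of all genes.

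**Figure D5:**
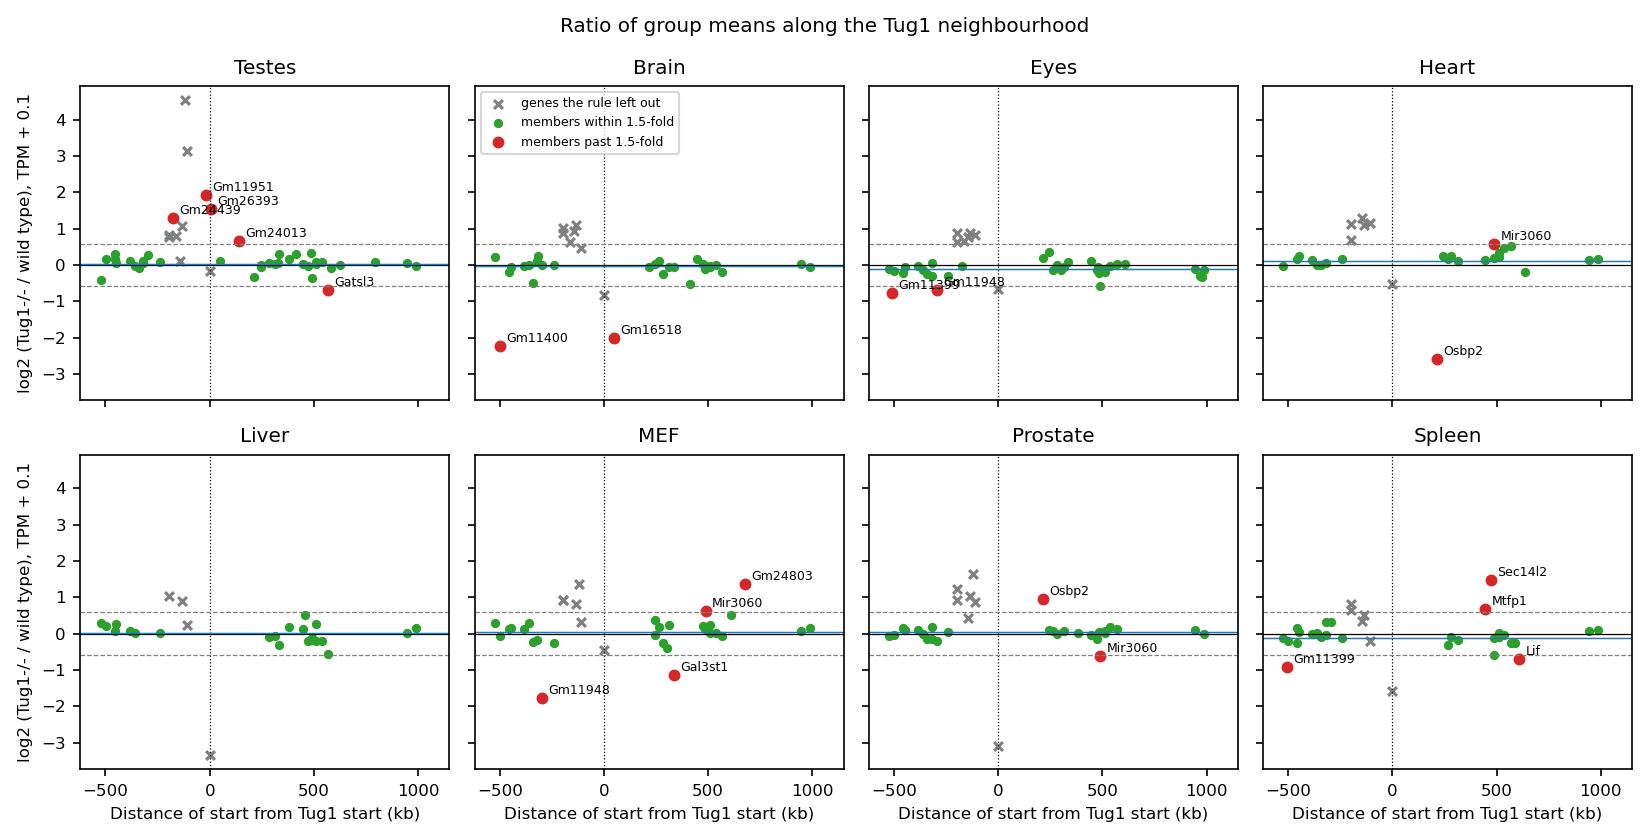
log2 ratio of Tug1-/- to wild-type means (TPM + 0.1) against the distance of each start from that of Tug1, in kb, for members at 1 TPM or above in either mean (green within 1.5-fold, red past it) and for the genes the rule left out (grey crosses). Tug1 itself lies below the axis and is not drawn; dashed lines mark 1.5-fold and the blue line is the median of all genes; liver has 0 members past the fold and testes has 5.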

How the data were processed

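TPM values are the authors' group means per gene: per the labels and the study's methods, paired reads of polyadenylated RNA were aligned with STAR to GRCm38, counted with featureCounts on GENCODE vM16 genes and scaled to TPM. The deposited tables for the organs and MEF stack tissues, so their TPM and the mean normalised count (baseMean) were recorded as other units. The authors removed genes that reached 3 reads in no replicate. The 2 tables also hold the authors' own comparisons (log2 fold changes, standard errors, test statistics, p-values, adjusted p-values and calls), which were not used. No column holds a single sample, so no test, interval or depth could be computed.

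Members and lists were chosen with earlier results of these data known. The marker lists of other tissues and the searched promoter letters were chosen after seeing the data. Named were all members past 1.5-fold (pseudocount 0.1, minimum 1 TPM), all protein-coding members at 1 TPM, the genes at the window's edges, those nearest Tug1 and noncoding members by count. The counting was tested on simulated data. Analyses used Python, numpy and pandas.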

Additional observations from a re-analysis of the deposited data

How the results depend on the processing

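No paired analysis was possible because levels are given per group, with no column of a single sample, and for the same reason no replicate could be left out. Depth is unknown, and the short RNA genes rest on few reads. Of 139 recomputed values, 87 stayed within 1.5 times the count reported (within 0.1 for a median log2 ratio), those with no pseudocount among them. Comparisons not named for a setting below stayed within these limits. With no minimum level (36 to 53 members tested, beside 8.75% to 15.3% of all genes past the fold, against 4.56% to 10.5% as reported) the members past the fold in Tug1-/- over wild type were 10 each in testes and MEF, 9 in eyes, 7 each in heart and spleen, 6 in brain, 5 in prostate and 3 in liver, and 12 in rescue over wild type. With a minimum of 5 TPM (14 to 27 members, beside 1.47% to 6.88%) they were 2 in spleen, 1 each in testes, eyes and MEF and 0 in brain, 0 in rescue over Tug1-/- and 1 in rescue over wild type. At a fold limit of 0.32 on the log2 scale (beside 11.8% to 27.0%) they were 9 in testes, 7 in MEF, 5 each in eyes and heart, 4 in brain and 2 in liver, and 8 and 12 in rescue over Tug1-/- and over wild type. At a fold of 2 (beside 1.67% to 3.77%) they were 3 in testes, 0 in eyes, 1 in heart, 0 in prostate and 1 in spleen, and 2 in each rescue comparison. With a pseudocount of 1 (beside 2.35% to 6.48%) they were 1 in eyes, 1 in heart, 2 in MEF, 1 in prostate and 2 in spleen, and 2 and 4 in rescue over Tug1-/- and over wild type. Within 0.5 Mb of Tug1 (15 to 29 members, beside 4.56% to 10.5% of all genes) they were 1 in eyes, 2 in spleen and 4 in rescue over wild type. Requiring 1 TPM in the average of both means, an alternative chosen after seeing the data (beside 3.49% to 9.36%), gave 1 each in brain, eyes and MEF. Centred on the median of all genes (beside 4.62% to 9.99%), they were 1 in eyes, 1 in heart, 3 in MEF and 3 in spleen, without Gm11948 in eyes, Mir3060 in heart and MEF and Lif in spleen, and the medians at lower and higher coordinates became -0.050 and 0.010 in eyes, -0.0031 and 0.088 in heart and 0.086 and 0.015 in spleen. The minimum, average, fold and window settings test other genes or set another fold by construction. For the pseudocount and the centring the cause was not tested.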
